A study of Mus musculus with 45 samples.

Results

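The 42 genes described here make the proteins of the cell cycle and of DNA replication, and their RNA was counted in the colonic epithelium of control, obese and formerly obese mice. They were chosen by symbol from the 24918 gene entries of the count table. Each symbol had 1 entry, and each of the 42 passed the filter on low counts, as did 12961 entries in all. Replication was represented by 14 genes, control of the G1/S transition by 5, mitosis by 18, and 5 genes that span the cycle were grouped as shared proliferation genes. Male C57BL/6 mice (C57BL/6J in the methods of the study) were 6 weeks old at the start. Control mice (LF) ate a diet with 10% fat for 20 weeks, obese mice (HF) a diet with 60% fat for 20 weeks, and formerly obese mice (HFLF) the 60% fat diet for 15 weeks and then the 10% fat diet for 5 weeks. Each group had 5 RNA-seq libraries, and a replicate number names a library. The epithelium was detached from the whole colon with EDTA, so a library averages dividing crypt cells and differentiated surface cells. In such bulk RNA, fewer dividing cells and less RNA per dividing cell cannot be told apart.

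Colonic epithelium is renewed by divisions in the lower crypt, and its cells stop dividing as they move toward the surface. In G1, D cyclins with Cdk4 and then E cyclins with Cdk2 phosphorylate the RB proteins, which frees E2F factors to switch on genes for DNA synthesis. Cdc6 and Cdt1 load the ring of Mcm proteins on origins, geminin (Gmnn) keeps Cdt1 from loading them again, and Pcna clamps the polymerase to its template. Later in the cycle the transcription factors B-Myb (Mybl2) and Foxm1, with the MuvB complex, switch on cyclins, kinases and motors of mitosis through a promoter element called CHR. RNA of the replication genes therefore peaks at G1/S and in S phase, and RNA of the mitosis genes in G2 and M.

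Promoter letters were read for the same lists. RefSeq windows (GRCm38.p6, 250 bases before to 50 after a start site) matched 35 of the 42 genes and 10357 of the genes tested. Mcm4, Gmnn, Ccne2, Aurkb, Cdc25c, Ccna2 and Foxm1 had no window in the table used. The motifs searched, on both strands, were E2F (TTTCCCGC, TTTCGCGC, TTTGCCGC or TTTGGCGC), CHR (TTTGAA) and CCAAT, the letters bound by NF-Y. E2F letters were in 6 of 12 replication promoters (50%) and 1 of 16 mitosis promoters (6.25%), against 4.07% of the windows of all tested genes. CHR letters were in 1 of 12 replication promoters (8.33%) and 11 of 16 mitosis promoters (68.8%), against 12% of all windows. All 11 of these mitosis windows also held CCAAT, and 14 of the 16 mitosis windows held it in all (87.5%, against 66.7% of the replication windows and 38.6% of all windows). A match is a description of the letters, not a site of binding. The stretches below are the 170 bases directly before the start site, on the strand of the gene, in GRCm38.p6. They show 2 replication promoters with E2F letters, 2 mitosis promoters with CHR letters beside CCAAT, and the promoter of Mki67. Capitals mark the 3 motifs, and neighbouring matches can overlap, as the first 2 E2F matches of Mcm6 do. All 5 genes lie on the minus strand: Mcm6 at chr1:128359706-128359875, Mcm7 at chr5:138171884-138172053, Cdc20 at chr4:118437344-118437513, Cdk1 at chr10:69352913-69353082 and Mki67 at chr7:135716380-135716549.
Mcm6: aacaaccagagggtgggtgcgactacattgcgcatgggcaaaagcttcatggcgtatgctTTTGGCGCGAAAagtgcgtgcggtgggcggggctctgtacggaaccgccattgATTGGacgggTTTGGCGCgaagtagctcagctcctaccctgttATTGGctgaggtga
Mcm7: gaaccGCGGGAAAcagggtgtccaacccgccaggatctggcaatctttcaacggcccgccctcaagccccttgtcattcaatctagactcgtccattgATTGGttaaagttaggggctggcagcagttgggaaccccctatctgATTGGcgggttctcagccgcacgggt
Cdc20: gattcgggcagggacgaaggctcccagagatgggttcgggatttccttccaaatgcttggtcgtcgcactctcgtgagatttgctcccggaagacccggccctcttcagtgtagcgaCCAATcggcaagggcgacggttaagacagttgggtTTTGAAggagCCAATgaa
Cdk1: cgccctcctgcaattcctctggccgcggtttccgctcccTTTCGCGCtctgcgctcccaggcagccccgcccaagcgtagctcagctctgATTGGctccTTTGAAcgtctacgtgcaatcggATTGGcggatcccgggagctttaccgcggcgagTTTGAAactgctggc
Mki67: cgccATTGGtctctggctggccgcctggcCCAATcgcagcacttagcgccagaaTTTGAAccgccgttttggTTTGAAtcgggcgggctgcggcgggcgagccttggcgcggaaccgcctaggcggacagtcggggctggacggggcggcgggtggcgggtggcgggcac
Cdk1 was the mitosis gene with letters of both kinds, 1 E2F match and 2 CHR matches. Mki67 held 2 CHR and no E2F matches.

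Library totals were 15230391 to 22762095 gene counts, and formerly obese replicate 3 had the highest. The labels name no batch. The lowest chi-square between replicates of a group, divided by its degrees of freedom, was 5.66, and no pair of libraries matched within sampling noise. Epithelial markers summed to 13295 to 15765 CPM (gene counts scaled to a common library size) over the 15 libraries. Immune markers summed to 23.1 to 55.8 CPM, and fibroblast and muscle markers to 2.22 to 29.5 CPM. CPM used TMM scaling, and fold changes, standard errors and p-values came from edgeR. A gene was called changed when its fold change was over 1.2, its p-value under 0.01 and its adjusted p-value under 0.25, as in the methods of the study.

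None of the 42 genes was called in any of the 3 comparisons. The same rule called 1.58% of all tested genes between obese and control mice and 3.72% between formerly obese and control mice. Between formerly obese and obese mice it called 2.65%. With shares this low, 0 of 42 is near the share over all tested genes and does not set these genes apart. DESeq2 also called 0 of the 42 in each. At an unadjusted p-value under 0.05, edgeR found 0, 0 and 2 of the 42, against 10.9%, 16.7% and 13.4% of all tested genes. The CPM of the 5 and 5 libraries overlapped for each of the 42 genes in each comparison. They were separate for 2.47%, 3.62% and 3.38% of all tested genes, and 0 of 42 is near these shares too. The lowest adjusted p-value among the 42 was 0.723, 0.412 and 0.335 in turn.

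**Figure D1:**
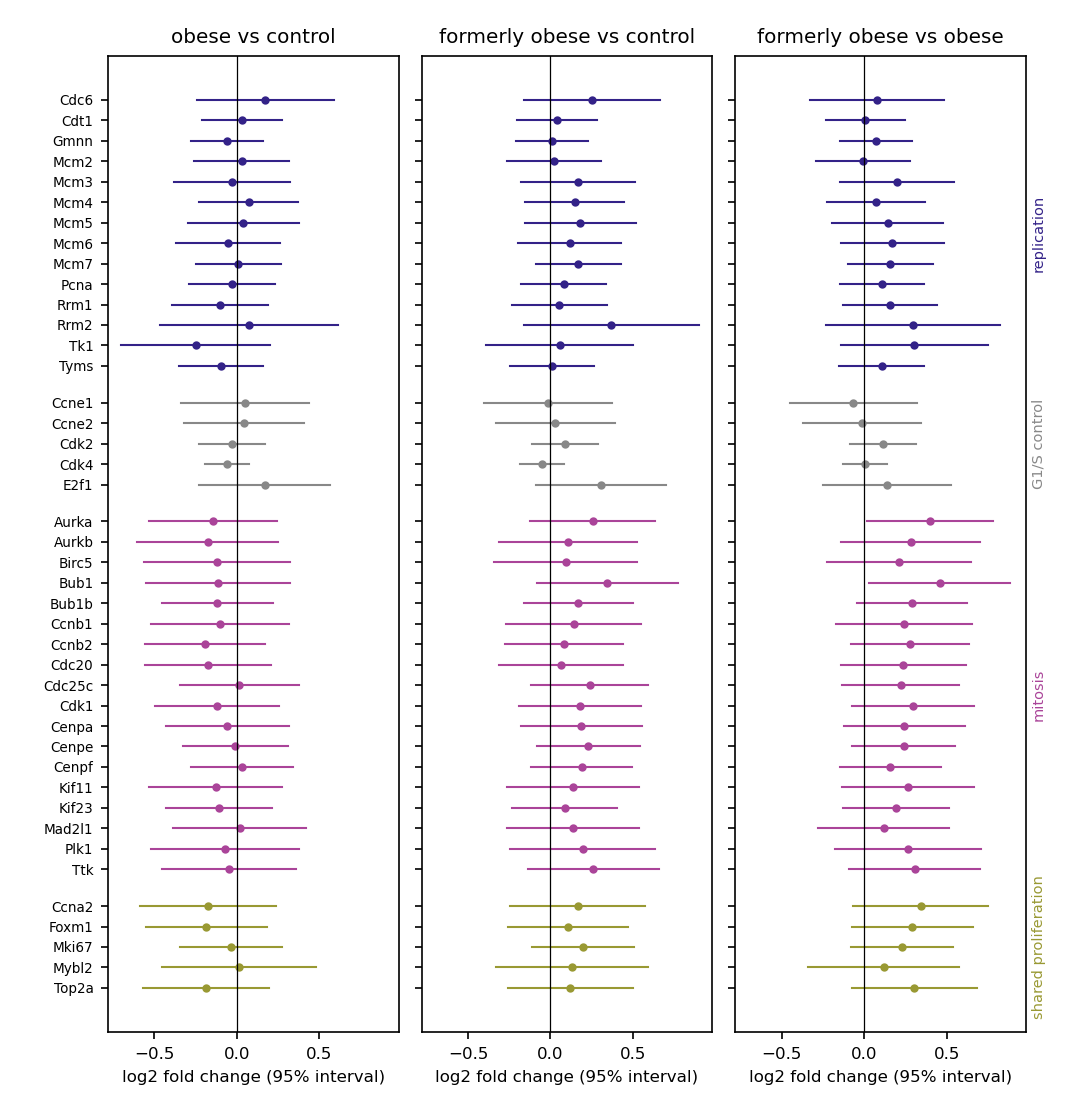
Log2 fold change (dots) with 95% interval (lines) of each of the 42 genes in the 3 comparisons, from the edgeR fit of 15 libraries and coloured by list. The intervals cover 0 for all genes but Bub1 and Aurka in the comparison of formerly obese with obese mice, and each of the 18 mitosis genes lies to the right of 0 in both panels of formerly obese mice.

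The intervals give the changes that are compatible with the counts of each gene. Each of the 42 intervals (95%) lay within 1 log2 unit of 0 in each comparison, and 26, 20 and 16 of them lay within 0.5 log2 units. Their median half-width was 0.37, 0.36 and 0.36 log2 units. The standard errors were wide for this data set, with a median of 0.17 among the 42 genes and 0.08 among all tested genes in each comparison. The intervals differed between genes, and that of Cdk4 between obese and control mice was among the narrow ones (-0.19 to 0.08).

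Among the replication genes, Pcna, the sliding clamp, had 40.9, 37.1, 39.3, 56.5 and 47.9 CPM in control replicates 1 to 5. Its values were 45.5, 33.1, 47.0, 43.2 and 48.5 CPM in obese mice and 42.3, 38.8, 54.1, 46.4 and 52.3 CPM in formerly obese mice. The 3 groups lay on top of each other, and the log2 fold change between obese and control mice was -0.03 ± 0.12 (SE). Mcm7, a subunit of the replicative helicase, had 35.7, 28.9, 39.6, 38.4 and 39.4 CPM in control mice, 38.5, 30.7, 45.8, 33.2 and 35.2 CPM in obese mice and 37.2, 32.7, 51.3, 39.0 and 44.2 CPM in formerly obese mice. Replicate 2 was its lowest library in each group. The log2 difference of Mcm7 between formerly obese and control mice was 0.17 ± 0.12 (SE, adjusted p = 0.515, edgeR).

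The 2 replication genes of smallest p-value in a comparison were drawn from Rrm2, Tk1, Cdc6 and Mcm7. No replication gene had an unadjusted p-value under 0.05 (edgeR), so no shared function is read from this order. Rrm2, the regulated subunit of ribonucleotide reductase, ranged over 12.6 to 27.8 CPM in control, 14.8 to 31.8 CPM in obese and 16.4 to 36.7 CPM in formerly obese mice. Its log2 fold change between formerly obese and control mice, 0.37 ± 0.25 (SE, 95% interval -0.16 to 0.90, adjusted p = 0.491), was the largest of the 14 and had the widest interval. Tk1, the salvage kinase for thymidine, had 18.9, 17.7, 23.1, 32.4 and 21.8 CPM in control mice and 20.3, 15.8, 21.1, 19.3 and 19.6 CPM in obese mice. The high control value was that of replicate 4, and the log2 fold change was -0.25 ± 0.21 (SE, adjusted p = 0.723). In formerly obese mice Tk1 reached from 13.5 to 34.9 CPM, a wider range than in either other group. Cdc6, the origin licensing factor, had means of 6.59 ± 1.47, 7.43 ± 2.04 and 7.81 ± 1.79 CPM (SD, n = 5) in control, obese and formerly obese mice.

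Log2 fold changes of the 6 Mcm genes stayed between -0.05 and 0.07 in obese against control mice and between 0.02 and 0.18 in formerly obese against control mice. Gmnn, which restrains licensing, differed by -0.06 and 0.01. The median of the 14 replication genes was -0.01 between obese and control mice (7 of 14 higher). Leaving out 1 library moved it between -0.10 (0 of 14 higher, without obese replicate 3) and 0.063 (13 of 14 higher, without control replicate 4). It was 0.10 between formerly obese and control mice (14 of 14 higher) and 0.13 between formerly obese and obese mice (13 of 14 higher). Without control replicate 2 or without formerly obese replicate 3, 8 of 14 replication genes were higher in formerly obese than in control mice, with medians of 0.018 and 0.039. Without obese replicate 2 the median between formerly obese and obese mice was 0.059, and without formerly obese replicate 3 it was 0.047. Over all tested genes the medians were 0.00 in each, with 50.1%, 49.8% and 51% above 0. Both comparisons of formerly obese mice use the same 5 formerly obese libraries, and the counts of higher genes are not independent of each other.

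Of the G1/S genes, Cdk4, the partner of the D cyclins, had means of 101 ± 9.49, 96.9 ± 5.99 and 97.2 ± 5.83 CPM (SD, n = 5) and, per kilobase of exon, the highest CPM of the 42 genes. E2f1, the activating E2F factor, had a log2 fold change of 0.30 ± 0.19 (SE, adjusted p = 0.434) between formerly obese and control mice. Ccne1, Ccne2 and Cdk2, the cyclin E kinase, had differences of -0.07 to 0.12 over the 3 comparisons. The list medians were 0.04, 0.03 and 0.01.

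Among the mitosis genes, Bub1, a kinase of the spindle checkpoint, had 11.1, 8.84, 12.4, 15.6 and 13.6 CPM in control mice, 10.5, 8.43, 14.7, 11.9 and 11.5 CPM in obese mice and 14.2, 9.21, 21.4, 13.0 and 20.2 CPM in formerly obese mice. Formerly obese replicates 3 and 5 lay above all other libraries, and replicate 2 lay among the lowest. Bub1 had the smallest p-value of the 42 genes, for formerly obese against obese mice (log2 fold change 0.46 ± 0.20 SE, 95% interval 0.03 to 0.89, adjusted p = 0.335, edgeR). Aurka, the kinase of the spindle poles, had 13.7, 14.7, 17.9, 21.5 and 16.9 CPM in control mice, 16.7, 14.7, 16.2, 15.1 and 14.1 CPM in obese mice and 19.5, 11.5, 28.7, 16.7 and 24.4 CPM in formerly obese mice. The obese libraries were tightly grouped within the range of the formerly obese libraries, and the log2 fold change between these groups was 0.40 ± 0.18 (SE, adjusted p = 0.347).

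Ccnb2, a B-type cyclin, had 34.3, 29.5, 36.6, 42.5 and 35.8 CPM in control mice, 32.3, 29.6, 33.0, 30.8 and 30.7 CPM in obese mice and 39.1, 21.1, 52.4, 29.8 and 46.5 CPM in formerly obese mice. The lowest and the highest of these 15 values were both in formerly obese mice. Its log2 fold change was -0.19 ± 0.17 (SE, adjusted p = 0.736) between obese and control mice. Cdc20, the activator of the anaphase-promoting complex, had means of 30.8 ± 4.17, 27.3 ± 4.82 and 32.0 ± 10.2 CPM (SD, n = 5). Cenpe, a kinetochore motor, had means of 29.5 ± 3.82, 29.4 ± 3.09 and 34.5 ± 9.11 CPM. In all 3 of these genes the SD was widest in formerly obese mice.

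**Figure D2:**
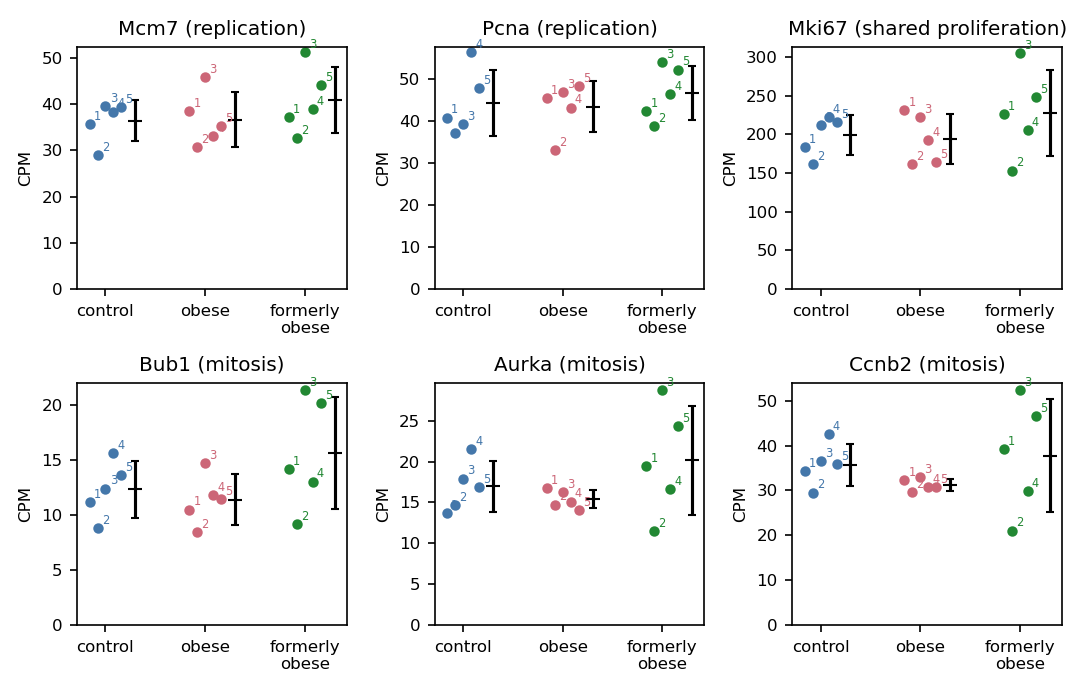
CPM per library (dots, with replicate numbers) of 6 genes in control, obese and formerly obese mice, with the mean and SD of 5 libraries beside them. Ccnb2 spans 21.1 to 52.4 CPM in formerly obese mice and 29.6 to 33.0 CPM in obese mice, and Mcm7 28.9 to 39.6 CPM in control and 32.7 to 51.3 CPM in formerly obese mice.

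The median log2 fold change of the 18 mitosis genes was -0.11 between obese and control mice (3 of 18 higher), and leaving out 1 library moved it between -0.18 (0 of 18 higher, without control replicate 2) and -0.0091 (8 of 18 higher, without control replicate 4). It was 0.17 between formerly obese and control mice (18 of 18 higher) and 0.25 between formerly obese and obese mice (18 of 18 higher). Without formerly obese replicate 3, 10 of the 18 mitosis genes and 21 of the 42 genes were higher in formerly obese than in control mice, and the mitosis median was 0.0054. Against obese mice, 17 of 18 mitosis genes and 33 of 42 genes were still higher without that replicate (median 0.10), and 18 of 18 mitosis genes were higher without any other single library. Without formerly obese replicate 2, the edgeR test called 5 of the 42 genes higher in formerly obese than in obese mice (of all genes tested in that fit, 3.06% were called in either direction) and 1 of the 42 higher in formerly obese than in control mice (4.11%). The 5 were Aurka, Bub1, Ccnb2, Cenpe and Bub1b, a checkpoint protein named here after its values were seen, with log2 fold changes of 0.37 to 0.60. The 1 was Cenpe, with a log2 fold change of 0.36 ± 0.11 (SE, adjusted p = 0.110). Formerly obese replicate 2 was the lowest library of its group for 17 of the 18 mitosis genes. Leaving it out therefore raises their means in that group, and these calls are no separate evidence of a change.

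Among the shared proliferation genes, Mki67, which coats mitotic chromosomes and serves as the usual marker of dividing cells, had 184, 162, 212, 222 and 216 CPM in control mice, 232, 161, 222, 193 and 164 CPM in obese mice and 226, 153, 306, 205 and 249 CPM in formerly obese mice. The obese values covered the control range, with a log2 fold change of -0.03 ± 0.15 (SE, adjusted p = 0.965). Top2a, the topoisomerase that untangles sister chromatids, ranged over 93.8 to 157 CPM in control, 95.1 to 139 CPM in obese and 87.4 to 197 CPM in formerly obese mice. Its log2 fold change was 0.30 ± 0.18 (SE, adjusted p = 0.498) between formerly obese and obese mice. Medians of the 5 genes were -0.18, 0.13 and 0.29 over the 3 comparisons.

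Variation between libraries of the same group was larger for the 42 genes than for the typical tested gene, and they shared it. The median SD of log2 CPM within groups was 0.32 for the 42 genes and 0.13 for all tested genes. Single libraries were low or high for nearly the whole set. Control replicate 2 was the lowest control library for 38 of 42 genes and replicate 4 the highest for 31. Obese replicate 2 was the lowest obese library for 30 and replicate 3 the highest for 34. Formerly obese replicate 2 was the lowest for 33 and replicate 3 the highest for 37. In each group the library highest for most of these genes also had the most counts. These were control replicate 4 (16718408), obese replicate 3 (16749096) and formerly obese replicate 3 (22762095). The libraries lowest for most genes had 15472005, 16393870 and 16114562 counts in turn, and only formerly obese replicate 2 had the fewest of its group. The part of depth in this was not tested.

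**Figure D3:**
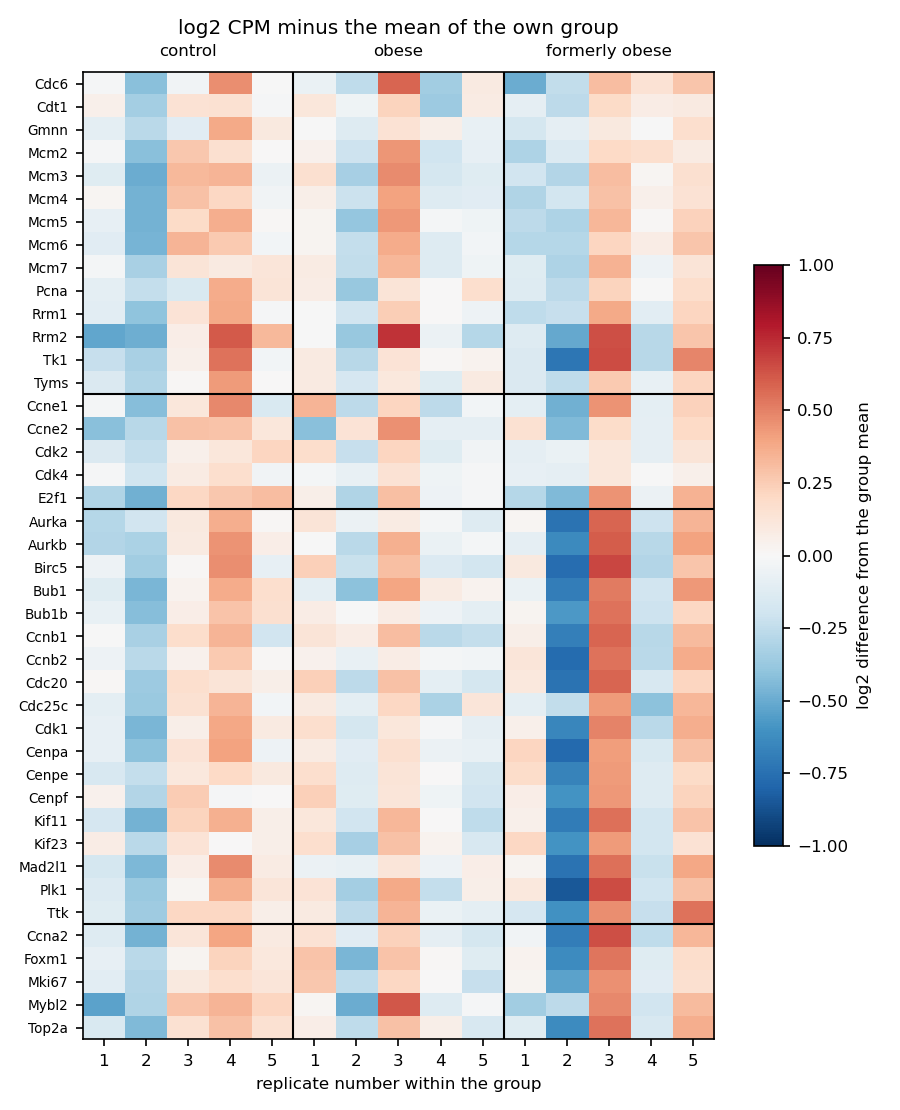
Log2 CPM (no prior count) of each of the 42 genes in each library, minus the mean of the 5 libraries of its group, from blue (lower) to red (higher), with black lines between groups and between lists. Columns are mostly of 1 colour in control and obese mice, and in formerly obese replicates 1 and 2 the replication and mitosis blocks differ.

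Over the 15 libraries, on deviations from the group means, Pearson's r was above 0 in each of the 861 pairs of the 42 genes, with a median of 0.80 (0.36 to 0.98). The points share their library and its scaling. The median r was 0.82 within the replication list, 0.90 within the mitosis list and 0.72 between the lists. Tk1 was a replication gene that correlated more with the mitosis score (0.95) than with the mean of the other replication genes (0.82), and Mcm5 correlated most with the latter (0.98). Outside the lists, the genes with the highest r to the mean of the 42 were E2f8 (0.98), Ncapg, Kif15, Cenpi, Rad54l, Ube2c, Plk4, Ncapd2, Melk and Nde1 (0.96), among 10994 genes with a mean of at least 50 counts. Of the 100 genes with the highest r, 43 belonged to the further cell cycle lists described below, which held 110 of the 10994.

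Replication and mitosis genes were then compared library by library, with a score for each list, its mean log2 CPM. The difference between the scores, replication minus mitosis, was nearly constant in control mice and varied widely in formerly obese mice. In control mice it was 0.52, 0.49, 0.53, 0.57 and 0.53 in replicates 1 to 5, a mean of 0.53 ± 0.03 (SD, n = 5). In obese mice it lay between 0.53 and 0.71, with a mean of 0.60 ± 0.08. In formerly obese mice it was 0.26, 0.89, 0.31, 0.72 and 0.42, a mean of 0.52 ± 0.28. The mean of formerly obese mice thus differed from those of control and obese mice by less than the spread within formerly obese mice. Between obese and control mice the means differed by 0.07, with a range of 0.05 to 0.09 when 1 library was left out. Obese libraries, from 0.53 up, overlapped the control libraries, which reached 0.57, and the difference was not tested. Among formerly obese mice, low-difference libraries (replicates 1, 3 and 5) had much mitosis RNA for their replication RNA, and replicates 2 and 4 had little.

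**Figure D4:**
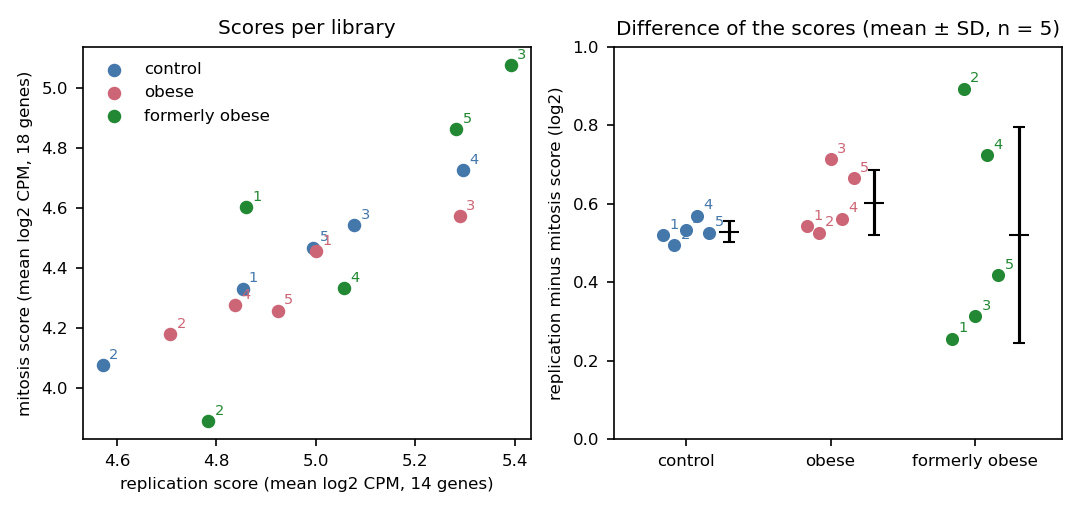
Left, mitosis score against replication score (mean log2 CPM of 18 and 14 genes) of the 15 libraries with their replicate numbers. Right, the difference of the scores per library with mean and SD of 5. Control libraries lie close to 1 line at a difference of 0.49 to 0.57, and formerly obese libraries reach from 0.26 to 0.89.

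The wider spread lay in the mitosis genes. Between the lowest and highest formerly obese libraries the mitosis score covered a 2.28-fold range, against 1.57-fold in control mice and 1.31-fold in obese mice. The replication score covered 1.52-fold, 1.65-fold and 1.5-fold in the same order. The SD of log2 CPM was widest in formerly obese mice for 18 of 18 mitosis genes, 2 of 14 replication genes and 37.3% of all tested genes. Formerly obese replicates 1 and 2 show this in a direct comparison. Their replication scores differed by 0.08 log2 units, with 6 of 14 genes higher in replicate 2, and their mitosis scores by 0.71 log2 units, a 1.64-fold difference, with 18 of 18 genes lower in replicate 2. With replicate 2 left out, 16 of 18 mitosis genes and 2 of 14 replication genes were still widest in formerly obese mice (34.9% of all genes), and without replicates 2 and 3 it was 8 of 18 and 2 of 14 (35.4%). The SD of the score difference in formerly obese mice was 0.21 without replicate 2 and 0.24 without both. Across all 15 libraries the scores varied together (Pearson's r = 0.86, Spearman's rho = 0.87, r = 0.85 on deviations from the group means, and r = 0.79 without the 2 libraries farthest from the median replication score).

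Further genes of both processes that are not among the 42 gave a similar picture of formerly obese mice in the same 15 libraries. Their scores followed those of the members (r = 0.99 on deviations from the group means), so they are not separate evidence. Among 40 other replication factors, such as polymerase and origin subunits, 10 had their widest SD in formerly obese mice, and among 45 other mitosis factors 42 did. Without formerly obese replicate 2 it was 10 and 35, and without replicates 2 and 3 it was 5 and 24. Their score difference was -0.04 ± 0.07 in control mice, 0.05 ± 0.05 in obese mice and -0.04 ± 0.25 in formerly obese mice (SD, n = 5). Control mice did not have the narrowest spread here, unlike for the members (0.03 in control and 0.08 in obese mice). Formerly obese replicate 2 was lower than replicate 1 for 43 of the 45 other mitosis factors, by 0.53 log2 units on average, and for 24 of the 40 other replication factors, by 0.05.

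**Figure D5:**
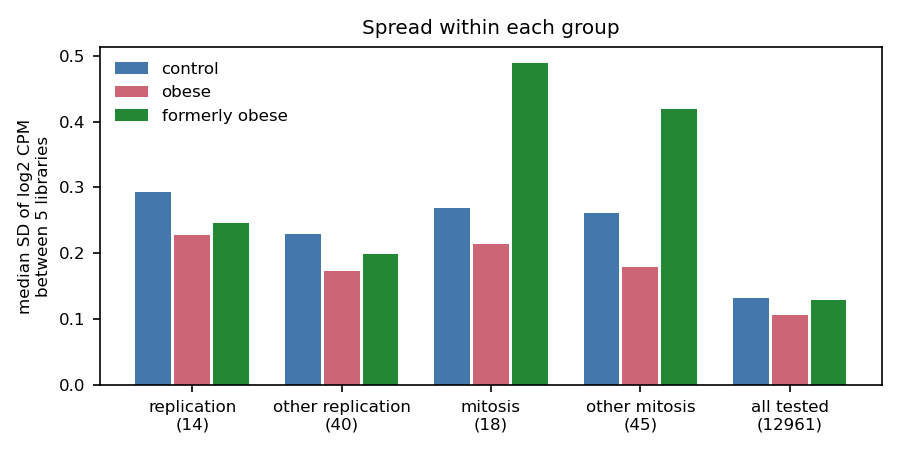
Median SD of log2 CPM between the 5 libraries of a group (bars from 0), for the replication and mitosis lists, for further replication and mitosis genes outside the 42, and for all tested genes. The bars of formerly obese mice reach 0.49 and 0.42 for the mitosis lists, and stay at 0.25 and 0.20 for the replication lists.

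The share of these further genes that was called was near or below the share of all tested genes, 1.58%, 3.72% and 2.65% in the 3 comparisons. Of the other replication factors, Cdc7, a kinase that fires origins, rose in formerly obese against control mice (log2 fold change 0.78 ± 0.24 SE, adjusted p = 0.0955, edgeR) from a mean of 4.23 to 7.23 CPM, and 0 of 40 were called in the other comparisons. Of the other mitosis factors, Kif18a, a kinesin that limits chromosome movement, rose in formerly obese against obese mice (0.47 ± 0.16, adjusted p = 0.196), and 0 of 45 were called in the other comparisons. Medians of the other mitosis factors were -0.13, 0.15 and 0.27, with 5, 45 and 45 of 45 genes higher, and those of the other replication factors were -0.04, 0.08 and 0.13.

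Upstream of these lists, 1 D cyclin changed. Ccnd2 had 343, 342, 294, 355 and 320 CPM in control mice, 244, 230, 236, 219 and 221 CPM in obese mice and 271, 295, 283, 294 and 357 CPM in formerly obese mice. Each obese library lay below every library of both other groups. Ccnd2 fell in obese mice by 0.52 ± 0.07 on the log2 scale (SE, adjusted p = 0.00346, edgeR) and rose in formerly obese against obese mice (0.38 ± 0.07, adjusted p = 0.0297). Its difference between formerly obese and control mice was -0.14 ± 0.07 (adjusted p = 0.301). Ccnd1 and Ccnd3, the other D cyclins, were not called in any comparison and had differences of -0.14 to 0.04. Of the 25 D cyclin, inhibitor and RB-E2F genes tested, Ccnd2 was the 1 called, in 2 of the 3 comparisons. In these 2, obese against control and formerly obese against obese mice, 1.58% and 2.65% of all tested genes were called.

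Markers of other cell types varied with the 42 genes to differing degrees, and their part in the result was not tested. On deviations from the group means over 15 libraries, r to the mean of the 42 genes was 0.17 for 7 stem cell markers, 0.08 for 7 goblet cell markers, 0.64 for 9 colonocyte markers, 0.64 for 6 enteroendocrine markers, -0.50 for 7 immune markers and 0.54 for 4 fibroblast and muscle markers. The last was 0.21, not centred, without the 2 libraries farthest from the median. Colonocyte markers were higher in formerly obese than in control mice for 9 of 9 genes (49.8% of all tested genes), 5 of them called (3.72% of all tested genes), and their sum was 7505 to 13874 CPM in control, 8254 to 12898 CPM in obese and 10876 to 16338 CPM in formerly obese mice. In formerly obese replicates 1 to 5 it was 15398, 10876, 16338, 12048 and 14599 CPM, lowest in replicates 2 and 4. Immune markers summed to 30.7, 48.8, 29.1, 52.2 and 26.5 CPM in formerly obese replicates 1 to 5, highest in replicates 2 and 4. Stem cell markers summed to 788 to 1105 CPM in control, 834 to 997 CPM in obese and 842 to 935 CPM in formerly obese mice. Replicates 2 and 4 of the last had 933 and 935 CPM. Slc12a2 made up most of this, with 691 and 670 CPM. Among formerly obese libraries Lgr5 was also highest in these 2 (29.5 and 27.7 CPM), and Axin2 was lowest in them (46.7 and 50.4 CPM). The mean log2 CPM of the stem cell markers was 5.61, 5.69, 5.75, 5.81 and 5.62 in replicates 1 to 5. Goblet cell and enteroendocrine sums did not set replicates 2 and 4 apart, and a link to the score difference was not tested. None of the listed markers was at 0 in all 15 libraries. Olfm4 was at 0 in 6 of them, and the muscle markers Acta2, Myh11 and Des in 1 or 2.

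DNA methylation between obese and control mice was available as a list of differentially methylated regions (DMRs) without values per mouse. Of the 42 genes, 2 held a DMR within the gene or up to 1000 bases before its start, against 12.9% of all tested genes. Kif11, a spindle motor, held a hypomethylated region of 27 bases at chr19:37384430-37384456 (mm10), with its midpoint 8040 bases after the start of the gene. Mad2l1, a spindle checkpoint protein, held a hypermethylated region of 70 bases at chr6:66539766-66539835. Neither differed in RNA between obese and control mice beyond its spread, with log2 fold changes of -0.13 ± 0.19 for Kif11 and 0.02 ± 0.19 for Mad2l1 (SE, n = 5 libraries a group).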

How the data were processed

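RNA-seq counted mRNA in 15 libraries. The authors prepared stranded mRNA libraries, mapped reads to mm10 with TopHat2 2.0.4 and counted them with HTSeq, per the labels and the methods of the study. They deposited raw counts per gene. The strand setting and annotation release are not given in the sources used here, so counts of overlapping genes are uncertain. The deposited DMR list gives a position and a direction. Tables of the authors' DESeq2 comparisons against control mice, with fold changes and p-values, and the amplicon methylation table were not used here.

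Counts were tested in R 4.3.3 with edgeR 4.0.16 (filterByExpr, TMM, quasi-likelihood, all 15 libraries, group as the only term). Fold changes are on the log2 scale, p-values were adjusted over 12961 genes by Benjamini-Hochberg, and a prior count of 2 was added for log2 CPM. The fit was tested on simulated data. The study put 5 mice on each regimen, and each library was taken as 1 mouse. Totals of 15230391 to 22762095 counts limit the precision of low genes, and intervals cover the spread between libraries. Promoter windows were those nearest to the start in the count table. Exon lengths came from RefSeq. Alternatives were DESeq2 1.42.0, other scaling, filters and cutoffs, GC correction, a replicate block and leaving out each library.

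The members and gene lists were chosen with earlier results of these data known. The genes named with values were Mki67, Top2a, Pcna, any called member, the 2 replication and the 2 mitosis members of lowest p-value per comparison, called genes of the further lists, the D cyclins, and the 10 genes most like the members. Values of Cdk4, E2f1, Gmnn, Ccne1, Ccne2, Cdk2, Bub1b, Kif11 and Mad2l1 were added outside this rule, after values were seen. So were those of the markers Car1, Car4, Slc12a2, Lgr5 and Axin2.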

Additional observations from a re-analysis of the deposited data

Results flagged for a closer look

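Within each group of 5 libraries, the CPM of the 42 genes and the list scores were searched for a library far from the others (a gap to its neighbour over 0.71 of the range, Dixon's 95% limit). Of 135 groups searched, 2 held such a library. The 135 share the same libraries and genes that vary together, so this count cannot be weighed against the 1 in 20 of independent groups. Both were obese replicate 3, the library that was highest of its group for 34 of the 42 genes. Rrm2, the ribonucleotide reductase subunit, had 31.8 CPM there and 14.8 to 19.1 CPM in the other 4 obese libraries. Cdk4 had 107 CPM there and 91.7 to 95.7 CPM in the other 4.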

How the results depend on the processing

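With DESeq2, upper-quartile or RLE scaling, other count filters, a stricter cutoff, the compared groups alone or GC correction, 0 of the 42 genes were called in each comparison, and the medians of the replication and mitosis lists kept their direction. The labels number the replicates of each group 1 to 5. Same-numbered libraries deviated together in some pairs and apart in others (r from -0.23 to 0.33 over all tested genes). The replicates numbered 2 deviated together in each pair of groups (r = 0.20, 0.22 and 0.16), and each was the lowest of its group for most of the 42 genes. Of 30 libraries set against another group, 10 correlated best with their own number, and the numbers were not taken as pairs. With a replicate block, 1 gene was called in formerly obese against obese mice, Bub1 (log2 fold change 0.43, adjusted p = 0.156), and 0 in the other comparisons. Leaving out each library gave 0 to 1 called genes in formerly obese against control mice and 0 to 5 in formerly obese against obese mice, the highest values being those without formerly obese replicate 2. Extending the search for DMRs to 5000 bases on either side of a gene gave 4 of 42 genes, with Cdt1 and Pcna added, against 16.5% of all tested genes.

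Directions of uncalled genes turned when 1 library was left out, and their log2 fold changes then reached the following ranges. In obese against control mice they were -0.16 to 0.25 for Rrm2, -0.084 to 0.069 for Mcm7, -0.066 to 0.043 for Cenpe, -0.11 to 0.027 for Mki67, -0.086 to 0.075 for Pcna and -0.0034 to 0.31 for Cdc6. In formerly obese against control mice they were -0.13 to 0.22 for Tk1, -0.11 to 0.21 for Cdc20, -0.034 to 0.25 for Top2a and -0.067 to 0.23 for Ccnb2, and in formerly obese against obese mice -0.0077 to 0.25 for Cdc6. The replication minus mitosis score differed by -0.01 between formerly obese and control mice, with a range of -0.10 to 0.06 without 1 library. It differed by 0.07 (0.05 to 0.09) between obese and control mice and by -0.08 (-0.17 to -0.01) between formerly obese and obese mice. These fits were chosen after seeing the data. With 5 libraries a group, the 95% intervals of the 42 genes reached about 0.36 log2 units on either side at the median. Shifts inside the interval of a gene are compatible with its counts.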
